A study of Homo sapiens with 21 samples.

Results

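The focal adhesion and actin crosslinker genes followed here are *ACTN1*, *ACTN4*, *FLNA*, *FLNC*, *VCL*, *ZYX*, *PALLD*, *TLN1* and *FERMT2*, 9 of the 23201 gene symbols in the deposited table. They were chosen by symbol, for what their proteins do, but with earlier results of these data known. All 9 passed the filter of a mean value of at least 10 that left 13343 genes for testing. HMLE, an immortalized line of epithelial cells from the human breast, was sequenced to follow the transcriptome through the epithelial-to-mesenchymal transition (EMT). Cells were untreated (d0) or had been treated with TGFβ, a cytokine that induces EMT, for 1, 4, 7, 10, 15 or 20 days (d1, d4, d7, d10, d15 and d20), with 3 libraries at each of the 7 timepoints and 21 in all. All groups came from the same single cell line, no further genotype or agent is given, and the TGFβ dose is not given in the sources used here. Only d0 is labelled untreated, so days of TGFβ and days in culture cannot be told apart.

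Focal adhesions are protein assemblies that tie integrins, the receptors for the extracellular matrix, to actin filaments inside the cell. Talin (*TLN1*) and kindlin (*FERMT2*) bind integrin tails and activate them, vinculin (*VCL*) strengthens the link from talin to actin, and zyxin (*ZYX*) and palladin (*PALLD*) are adaptors on the actin side and on stress fibres. The α-actinins (*ACTN1*, *ACTN4*) crosslink actin filaments into bundles, and the filamins (*FLNA*, *FLNC*) crosslink them into networks and connect them to the membrane. Stress fibres and focal adhesions are known to enlarge when epithelial cells take on mesenchymal features.

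Values are normalised read counts, for which the reads of a library were all divided by the same size factor. The libraries held between 18847917 and 22667754 reads. The root mean square log2 difference between libraries of one timepoint was 0.21 to 0.24 outside d7, while at d7 the library in the third column differed by 0.47 and 0.46 from the others, so d7 values are given with and without it where it matters. The summed values of 4 mesenchymal markers (*VIM*, *FN1*, *CDH2*, *ZEB1*) lay between 9285 and 9682 at d0 and between 595208 and 613196 at d20. The 4 basal epithelial markers (*KRT5*, *KRT14*, *TP63*, *ITGA6*), which are defining for this cell type, were present throughout, between 197202 at d10 and 515719 at d7, where the third library, at 283676, was the lowest of the 3. The 4 epithelial markers (*CDH1*, *EPCAM*, *KRT8*, *KRT18*) summed to between 23906 and 25676 at d0, 22072 and 22734 at d15, and 15823 and 16232 at d20. Their log2 fold changes at d20 were -1.33, -2.39, -0.02 and -0.59. At d15 *KRT8* was higher than at d0, by 0.50, and the others were lower. Of 4 endothelial markers 1, *CDH5*, had at most 3 reads in every library, the summed value of the list was at most 57.7, and no marker was at 0 in all libraries. Of 4 leukocyte markers, *PTPRC* and *CD3E* had at most 3 reads in every library, and the sum, between 362 and 861, was nearly all *CD68*. In bulk RNA, a change in the number of cells that express a gene cannot be told apart from a change in RNA per cell.

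All 9 genes were higher in TGFβ-treated than in untreated cells. In each of the 18 treated libraries every one of the 9 lay above all 3 untreated libraries, a pattern shown by 14.6% of the genes tested. By limma with Benjamini-Hochberg adjustment over all genes tested, 8 of the 9 were higher on all 6 treated days, against 14.3% of the genes tested, and *VCL* passed on 5. By day, 9 of 9 were called higher at d1 (background 31.3%), d4 (36.9%), d7 (34.6%), d10 (37.0%) and d20 (32.5%), and 8 of 9 at d15 (39.2%). The count of those called at least 2-fold higher was 2 at d1 (background 6.47%), d10 (6.94%) and d15 (11.7%), 3 at d4 (9.68%) and d7 (8.79%), and 4 at d20 (7.51%). None was called lower than d0 on any day by limma, edgeR or DESeq2, and all 54 fold changes were above 0. The median log2 fold change of the 9 was 0.80, 0.63, 0.81, 0.81, 0.77 and 0.97 from d1 to d20, where the median of all genes tested was at most 0.03 in size. The comparisons share the 3 untreated libraries. Because the 9 were chosen with earlier results of these data known, their counts beside the background are descriptions and not an independent test. These fold changes are relative to the deposited scaling. Rescaling every library to the same total moved the median of all genes to between -0.20 and -0.14. After it, 8, 7, 7, 8, 6 and 9 of the 9 were called higher from d1 to d20. The background was then 2436, 3440, 3035, 2864, 4044 and 2661 of the 13343 genes tested. The calls lost were *VCL* at d1, d4, d7 and d10, *ACTN4* at d4 and d15, and *TLN1* at d7 and d15.

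**Figure D1:**
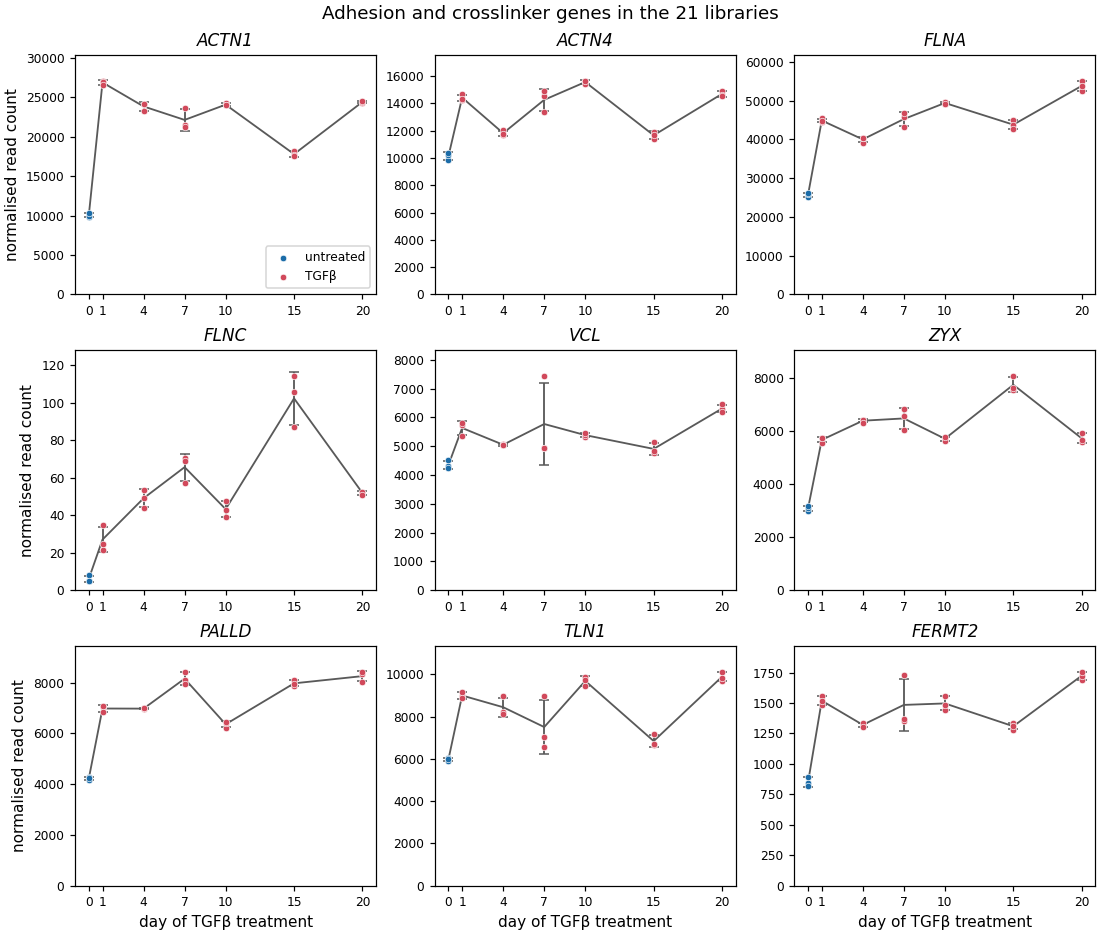
Normalised read count (linear axes from 0) of each of the 9 genes against day of TGFβ treatment. Points are single libraries, blue for untreated and red for treated, and lines and bars give the mean and SD of 3 libraries; *FLNC*, at or below 114, is on a far lower scale than *FLNA*, which reached 55170.

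Among the crosslinkers, α-actinin-1 was highest on the first day of treatment. *ACTN1* read 9864, 9944 and 10339 in the untreated libraries and 27114, 26939 and 26571 at d1, its highest day. The lowest d1 library was thus far above the highest untreated one, a log2 fold change of 1.42 ± 0.04 (SE, n = 3 against 3; limma adjusted p = 3.65e-18). Its mean then lay at 23838 ± 521 (SD, n = 3) at d4, 22129 ± 1370 at d7 and 24063 ± 152 at d10. It was lowest among the treated days at d15, with libraries at 18221, 17618 and 17533, and returned to 24334, 24376 and 24523 at d20. In the order of its daily means, d7 and d4 overlapped, as did d4 and d10, while d15, d20 and d1 did not overlap their neighbours.

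*ACTN4*, the other non-muscle α-actinin, read 9813, 10184 and 10391 at d0 and changed by less. Its values were 14237, 14658 and 14344 at d1, a log2 fold change of 0.51 ± 0.04 (limma adjusted p = 1.24e-10). The highest day was d10, at 15661, 15395 and 15604. The days d4 and d15 came close to the untreated level, at 11809 ± 177 and 11654 ± 281, where the log2 fold changes were 0.22 and 0.20. Both of these calls were lost under quantile normalization as well as under rescaling.

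Filamin A had, per kilobase of its longest coding transcript in GENCODE, the highest level of the 9 at d0, at 3025 ± 60.9 (SD, n = 3). *FLNA* read 25176, 25938 and 26167 at d0, 45406, 44395 and 44816 at d1 and 55170, 52494 and 53755 at d20, its highest day. The log2 fold change was 0.80 ± 0.04 at d1 and 1.06 ± 0.04 at d20 (limma adjusted p = 6.89e-14 and 3.66e-16). The lowest treated day was d4, at 39998 ± 729.

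Filamin C, best known from striated muscle, had the largest fold change of the 9 on every day and the lowest level per kilobase. With a pseudocount of 10 its log2 fold change at d1 went from 1.99 to 1.196, below the 1.42 of *ACTN1*, and it remained the largest on the other days. *FLNC* had 9, 6 and 5 reads in the untreated libraries, or values of 8.01, 5.09 and 4.95. It had values of 34.5, 21.5 and 24.8 at d1 and of 114, 106 and 87.0 at d15, its highest day. The d15 mean was 17.01 times that of d0, and the log2 fold change on log2(value + 1), which understates the change of a low gene, was 3.90 ± 0.19 (limma adjusted p = 4.72e-14); on the recovered reads edgeR gave 4.04. By d20 it was down to 51.9, 52.6 and 50.9. Its level per kilobase was 0.655 ± 0.188 at d0. At d20 the levels per kilobase were 6460 for *ACTN1*, 6318 for *FLNA*, 2960 for *ACTN4*, 2298 for *ZYX*, 1422 for *PALLD*, 1122 for *TLN1*, 973 for *VCL*, 512 for *FERMT2* and 5.64 for *FLNC*.

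Both genes of the integrin-binding layer rose. *TLN1* read 6060, 5906 and 5976 at d0, 8993, 9152 and 8865 at d1 and 10129, 9707 and 9854 at d20. The log2 fold changes were 0.59 ± 0.07 and 0.73 ± 0.07 (limma adjusted p = 3.79e-07 and 1.35e-08). At d15 it came down to 7162, 6664 and 6709, above every untreated library but by only 0.19 ± 0.07 (limma adjusted p = 0.0182; 1.33e-06 to 0.678 over 14 alternative settings, and 0.0786 without the first d15 library). At d7 its libraries read 7015, 6541 and 8972, and without the third library the log2 fold change went from 0.31 to 0.18.

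*FERMT2*, which encodes kindlin-2, read 842, 816 and 893 at d0, 1483, 1559 and 1514 at d1 and 1693, 1724 and 1757 at d20. The log2 fold change was 0.84 ± 0.06 at d1 and 1.02 ± 0.06 at d20 (limma adjusted p = 3.51e-10 and 9.57e-12). At d7 the third library, at 1734, stood above the others, at 1351 and 1368.

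*VCL* had the smallest changes of the 9 at d1, d4, d10 and d15. It read 4298, 4230 and 4518 at d0, 5750, 5792 and 5362 at d1 and 6278, 6459 and 6196 at d20. The log2 fold changes were 0.37 ± 0.09 at d1 and 0.54 ± 0.09 at d20 (limma adjusted p = 0.00178 and 3.95e-05). At d7 the libraries read 4953, 4927 and 7436, the widest spread of the 9 on that day relative to the mean (SD 25.0% of the mean), and the log2 fold change went from 0.38 to 0.18 without the third library. At d15 the libraries read 5141, 4751 and 4826, all above d0, and *VCL* did not pass the test (log2 fold change 0.17 ± 0.09, limma adjusted p = 0.0975). The fit estimates 1 spread per gene over all timepoints, and without the third d7 library the same difference had an adjusted p of 5.39e-06, with a range of 5.39e-06 to 0.898 over 14 alternatives. The call at d4 (limma adjusted p = 0.0442) was lost when any 1 library of d0 or d4 was left out.

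Zyxin and palladin, on the actin side, rose by d1 and rose again between d10 and d15. *ZYX* read 2995, 3098 and 3179 at d0 and 5727, 5560 and 5726 at d1. It peaked at d15 with 8078, 7554 and 7624, a log2 fold change of 1.33 ± 0.04 (limma adjusted p = 2.07e-17), and was back to 5940, 5573 and 5672 at d20, where it overlapped d10.

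*PALLD* read 4270, 4149 and 4252 at d0 and 7022, 7083 and 6838 at d1. It had 2 high plateaus, at d7 (8431, 8105 and 7934) and at d15 and d20 (7974 ± 115 and 8258 ± 194), with d10 between them at 6359 ± 114. The log2 fold change at d20 was 0.97 ± 0.03 (limma adjusted p = 7.09e-17), and the d7 libraries overlapped those of d15 and d20.

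The 9 genes did not move together once treatment had begun. Into d15 they changed in both directions, as did the genes tested as a whole. Between d10 and d15, 5 of the 9 fell, *TLN1* by 0.50, *ACTN1* by 0.44, *ACTN4* by 0.42, *FERMT2* by 0.19 and *FLNA* by 0.17 on the log2 scale, while *FLNC* rose by 1.22, *ZYX* by 0.44 and *PALLD* by 0.33. The background of these calls was 40.5% of genes lower and 39.3% higher, so changes in both directions were common at this step. Under quantile normalization 3 of the 9 were called lower and 4 higher. Between d15 and d20, 6 of the 9 rose, *TLN1* by 0.53, *ACTN1* by 0.46, *FERMT2* by 0.40, *VCL* by 0.36, *ACTN4* by 0.33 and *FLNA* by 0.30, and *FLNC* and *ZYX* fell by 0.96 and 0.44 (background 37.7% higher and 36.3% lower). *VCL* changed by -0.14 ± 0.09 into d15 (limma adjusted p = 0.19), and *PALLD* by 0.05 ± 0.03 out of it (limma adjusted p = 0.146). Quantile normalization turned the d15 change of *FLNA* to 0.09 (limma adjusted p = 0.0175; 6.38e-08 to 0.0175 over 14 alternatives) and, like rescaling, ended the call of *FERMT2*. Leaving out the third d7 library added a fall of *VCL* into d15 (limma adjusted p = 0.000197). The summed value of 8 proliferation markers (*MKI67*, *TOP2A*, *CCNB1*, *CDK1*, *BUB1*, *AURKA*, *PCNA*, *MCM2*) was also lowest at d15, between 18033 and 18478, against 46674 to 47825 at d10, 52010 to 54157 at d20 and 52635 to 54371 at d0. The part of proliferation in the d15 values was not tested.

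**Figure D2:**
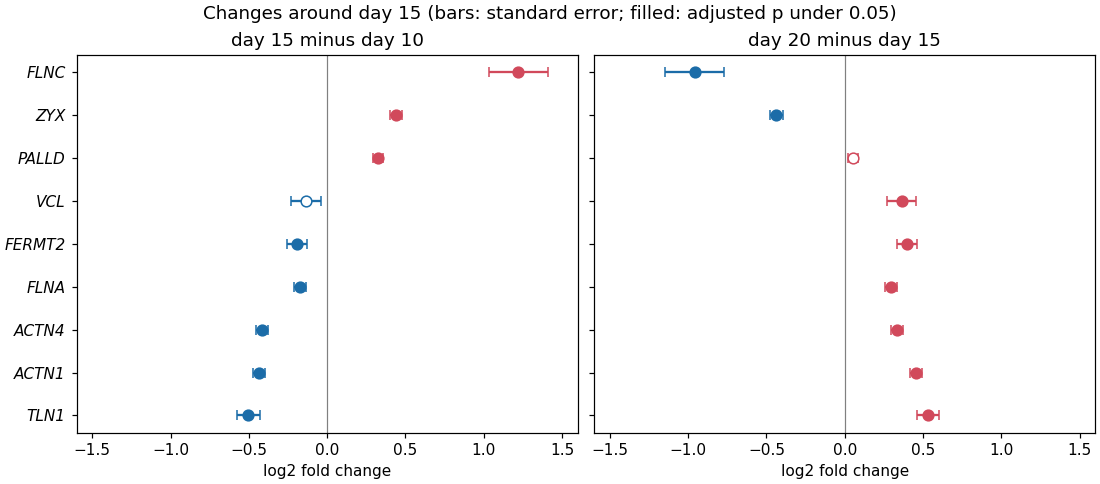
Log2 fold change of each gene from day 10 to day 15 (left) and from day 15 to day 20 (right), with bars of 1 standard error and filled points where the limma adjusted p was under 0.05. *FLNC* and *ZYX* rose into day 15 and fell after it, and *TLN1*, *ACTN1*, *ACTN4*, *FLNA* and *FERMT2* did the reverse.

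From d1 to d4, *FLNC* and *ZYX* rose by 0.86 and 0.17 (background 32.9% higher), and *ACTN4*, *FERMT2*, *ACTN1* and *FLNA* fell by 0.29, 0.20, 0.17 and 0.17 (background 32.0% lower). From d4 to d7, *ACTN4*, *PALLD*, *FLNA* and *FERMT2* rose by 0.27, 0.23, 0.18 and 0.16 and *TLN1* and *ACTN1* fell by 0.18 and 0.11 (background 25.5% in each direction). Of these 6, *FERMT2* lost its call without the third d7 library, at 0.04, or any 1 d4 library. *TLN1* lost its call without the first or second library of d4 or d7 but fell by 0.32 without the third of d7. The call of *ACTN1* was lost without the first or second of d7 or the second or the third of d4. From d7 to d10, *TLN1*, *ACTN4*, *FLNA* and *ACTN1* rose by 0.38, 0.13, 0.13 and 0.12 (background 36.2% higher), and *FLNC*, *PALLD* and *ZYX* fell by 0.59, 0.36 and 0.18 (background 35.2% lower). Over the 18 treated libraries, which share 6 timepoints, Pearson's r of the log2 values was -0.87 between *ACTN1* and *ZYX*, -0.89 between *ACTN1* and *FLNC*, 0.84 between *ZYX* and *FLNC*, 0.80 between *ACTN1* and *TLN1* and 0.92 between *VCL* and *FERMT2*, both of which were high in the third d7 library. Over the 17 treated libraries without it, the 5 values were -0.90, -0.91, 0.84, 0.80 and 0.95. These are descriptions over libraries that share timepoints and cells.

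Log2 ratios of 2 genes within a library, taken on value + 1, depend on the scaling of libraries only through the added 1, which matters most for *FLNC* at its low untreated values. Of these, 8 pairs, 7 of them reported, were compared between the 18 treated and the 3 untreated libraries by two-sided exact permutation tests, in which 0.000752 is the smallest p possible. The treated libraries were pooled although they are 6 timepoints of 3. The share of all gene pairs that separate this way was not computed. Of single genes tested, 14.6% had all 18 treated libraries above d0. The pairs were formed from genes chosen with earlier results of these data known, so the tests are not independent of those results. The log2 ratio of *ACTN1* to *ACTN4* was -0.03 to 0.01 at d0 and 0.57 to 1.04 in treated cells, so that *ACTN1* gained on *ACTN4* in 18 of 18 libraries (difference 0.76, exact p adjusted over the 8 pairs = 0.00201). *ZYX* rose relative to *VCL* in 18 of 18 libraries (difference 0.68, adjusted exact p = 0.00201), from -0.52 to -0.45 at d0 to between -0.21 and 0.67. *FLNC* rose relative to *FLNA* in 18 of 18 (difference 2.10, adjusted exact p = 0.00201), a size that the added 1 understates and that went to 1.13 with a pseudocount of 10 (adjusted exact p = 0.00602; 0.00234 to 0.1 over 23 alternatives).

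*PALLD* against *ACTN1* fell by 0.38 (adjusted exact p = 0.0602; 0.0239 to 0.182 over 23 alternatives), with 15 of 18 treated libraries below d0 and the 3 d15 libraries above it. *VCL* against *TLN1* changed by -0.17 (adjusted exact p = 0.126). In the talin and kindlin families the mean ratio hid opposite days. *TLN1* against *TLN2* differed by 0.00 over all treated libraries (adjusted exact p = 0.983), from 5.36 to 5.54 at d0, with a mean of 5.10 at d4 and 5.93 at d10. *TLN2*, the second talin gene, had a mean of 138 ± 9.82 at d0 and 245 ± 14.3 at d4. *FERMT2* against *FERMT1*, the kindlin of epithelial cells, differed by -0.08 (adjusted exact p = 0.983), with 9 treated libraries above and 9 below those of d0. The log2 ratio was -1.50 ± 0.03 at d0, -2.41 ± 0.03 at d1, -0.59 ± 0.04 at d15 and -1.19 ± 0.01 at d20. *FERMT1* itself was at 2402 ± 74.4 at d0, 8086 ± 154 at d1, 7124 ± 89.0 at d10, 1970 ± 29.7 at d15 and 3941 ± 88.9 at d20. On any single day 3 libraries against 3 cannot give an exact p under 0.1. The paralogs *FERMT3*, *ACTN2* and *ACTN3* had at most 10, 2 and 5 reads in a library and were not tested.

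**Figure D3:**
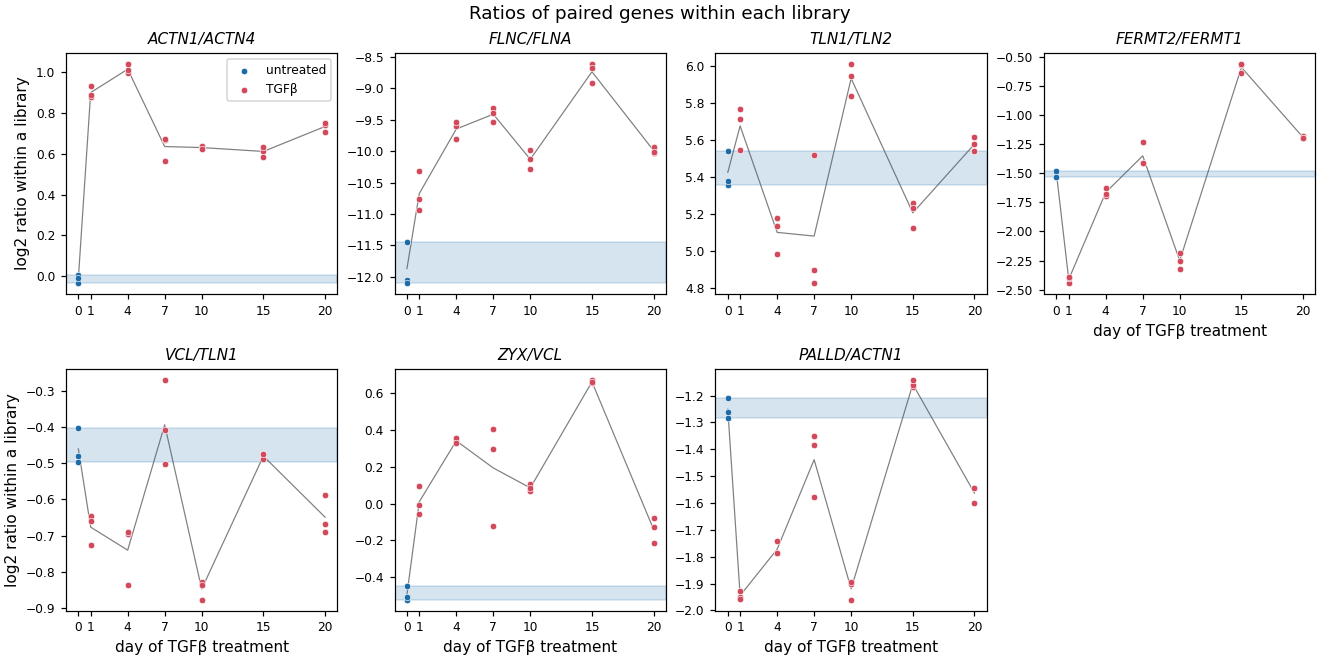
Log2 ratio of 2 genes within each library against day of TGFβ treatment for the 7 pairs (each panel has its own vertical range). Blue points and the blue band are the 3 untreated libraries and their range, red points are treated libraries and the line joins the daily means; all 18 red points lie above the band for *ACTN1*/*ACTN4*, *FLNC*/*FLNA* and *ZYX*/*VCL*.

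The other proteins of these structures were taken from a list of 61 adhesion plaque and crosslinker genes, of which 57 were tested. This list too was chosen with earlier results of these data known. Called higher from d1 to d20 were 41, 43, 47, 38, 42 and 45 of them, beside the backgrounds given above for each day. Called lower were 5 at each of d4 (background 35.3%), d7 (32.6%) and d20 (30.2%), 7 at d10 (30.7%), 8 at d1 (28.5%) and 11 at d15 (37.3%). The median log2 fold change of the list was between 0.45 and 0.49 on the 6 days. On all 6 days 29 were higher, against the 14.3% of all genes, and 3 were lower (background 8.26%), namely *PLS1*, *ENAH* and *ARHGEF7*. By group, 12 of 15 LIM and zyxin-family adaptors, 6 of 6 ILK-PINCH-parvin genes and 6 of 9 signalling kinases and scaffolds were higher at d20. So were 6 of 7 tensins and vinexin-family genes, 8 of 10 crosslinkers and bundlers and 5 of 8 actin assembly genes. At d15, in the same order, 12, 4, 8, 7, 4 and 6 were higher and 2, 2, 1, 0, 4 and 1 lower. The median log2 fold change of the crosslinkers and bundlers was then 0.09. Rescaling to the same total raised the count of lower genes to 13 at d1, 9 at d4, 8 at d7 and 13 at d10. On these days 6692, 6602, 6552 and 6740 of the 13343 genes tested were then called lower.

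The 5 called list genes with the largest increase at d20 were *LPXN*, *LIMS2*, *NEDD9*, *NEXN* and *LCP1*. *LPXN*, which encodes leupaxin of the paxillin family, had a mean of 93.8 ± 8.35 at d0 and 1288 ± 47.8 at d20, a log2 fold change of 3.77. *LIMS2*, a PINCH protein gene, had 2 to 3 reads at d0, at the floor of 3 reads per library, and a mean of 30.9 ± 2.26 at d20, which was at least 10.4-fold higher than the floor. *NEDD9*, a docking protein gene of the Cas family, went from 242 ± 29.5 to 1885 ± 92.7 and *NEXN*, which encodes the actin-binding nexilin, from 36.6 ± 7.28 to 237 ± 3.55. *LCP1*, which encodes L-plastin, was at 14.3 ± 5.34 at d0 and 46.1 ± 4.88 at d20 but at 6.01 ± 2.34 at d15. The 5 with the largest decrease were *PLS1* (log2 fold change -0.91), *ENAH* (-0.49), *EVL* (-0.37), *LIMD1* (-0.28) and *ARHGEF7* (-0.27). *PLS1*, an epithelial plastin that bundles the actin of microvilli, fell from 1050 ± 36.6 to 560 ± 45.9 at d20 and was lowest at d15, at 298 ± 23.0. *ENAH* and *EVL* are actin assembly factors of the Ena/VASP family, and *EVL*, unlike *ENAH*, was called higher at d7 (log2 fold change 0.17) and d15 (0.37).

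**Figure D4:**
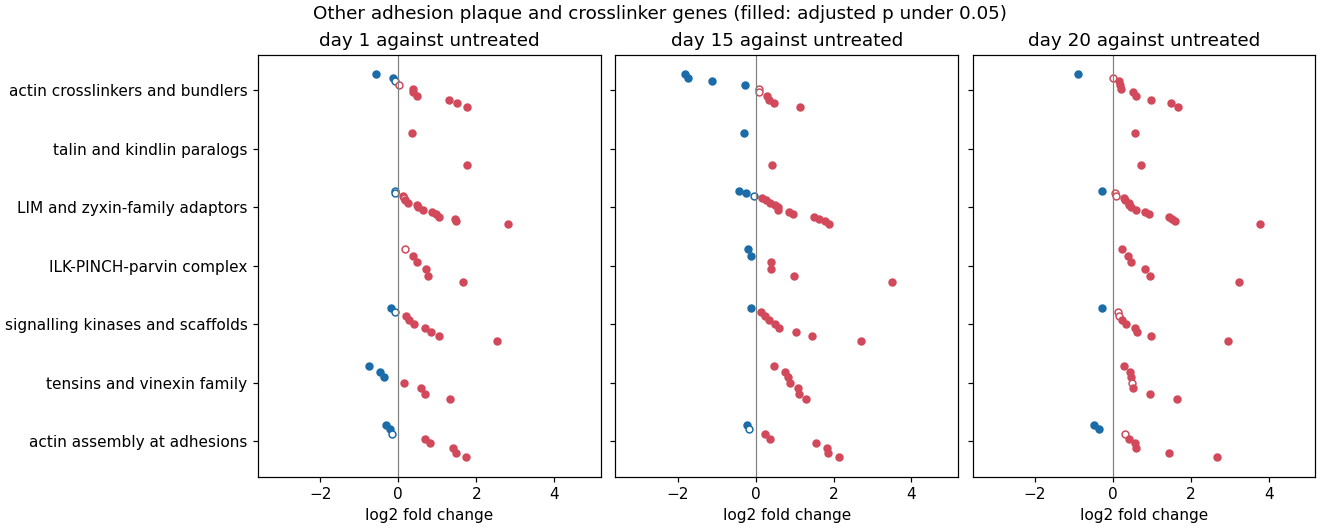
Log2 fold change against untreated cells of the 57 list genes tested, by group, at days 1, 15 and 20. Each point is a gene, red above and blue below 0, and filled where the limma adjusted p was under 0.05; 41, 42 and 45 genes were called higher and 8, 11 and 5 lower.

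For each of the 9 genes, the 2 other genes with a mean of at least 100 whose log2 values followed it most closely over the 21 libraries were found among 10594 candidates. *FLNA* was nearest to *CYR61* (r = 0.99) and *BASP1* (0.99), and *FERMT2* to *ZNF281* (0.97) and *BASP1* (0.97). *PALLD* was nearest to *TPM1* (0.98), which encodes an actin-binding tropomyosin, and *TNC* (0.97), which encodes the matrix protein tenascin-C. *VCL* was nearest to *PDLIM5* (0.94), which is a member of the adhesion list, and *TMEM50A* (0.89). *VCL* stood at 7436 in the third d7 library against 4953 and 4927 in the others. *PDLIM5* also spread most at d7 (2215 ± 382, SD, n = 3). The r values of nearest genes were not computed without the third d7 library. *ACTN1* was nearest to *LRRC8A* and *TMEM40* (both 0.99), *ACTN4* to *SFN* and *KIAA1161* (both 0.97), *ZYX* to *PTPRF* and *KIRREL* (both 0.98), *TLN1* to *SLC8A1* (0.98) and *LOC541471* (0.97), and *FLNC* to *CUX2* (0.98) and *SLC39A14* (0.97). The libraries share timepoints, so these values only describe shared movement over the 21 libraries, with the third d7 library included.

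Promoter sequences from RefSeq (GRCh38.p14) were available for all 9 genes, in 15 start windows. In the 250 bases before each start, 4 motifs of factors known to act on actin cytoskeleton or TGFβ target genes were searched on both strands: the CArG box of serum response factor, GGAATG for TEAD factors, TGANTCA for AP-1 and CAGACA for SMADs. The CArG box was in 1.16% of all 35116 windows and in 2 of the 15, at *FLNA* and at 1 of 4 *ACTN1* starts. The TEAD letters were in 11.9% of all windows and in 4 of the 15, 1 each of *ACTN1*, *FLNC*, *VCL* and *PALLD*. The AP-1 letters were in 6.57% of all windows and in 2 of the 15, of *ACTN4* and *PALLD*. The SMAD letters were in 13.6% of all windows and in 1 of the 15, of *ACTN1*. No window of *ZYX*, *TLN1* or *FERMT2* held these letters. A match describes the letters and not a bound site. The 4 stretches of 80 bases below are shown because they belong to *ACTN1*, which was highest at d1, *FLNA*, highest at d20, *FLNC*, highest at d15, and *VCL*, which changed least at d1; each runs 5′ to 3′ on the gene's strand with the motif in capitals (for *FLNC* the TEAD letters as read on the other strand), and none overlaps an annotated exon on the same strand.
ACTN1, chr14:68977693-68977772, minus strand, CArG box: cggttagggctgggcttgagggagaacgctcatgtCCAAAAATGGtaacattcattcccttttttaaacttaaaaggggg
FLNA, chrX:154374684-154374763, minus strand, CArG box: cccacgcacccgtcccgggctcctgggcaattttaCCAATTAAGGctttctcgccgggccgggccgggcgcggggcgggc
FLNC, chr7:128830268-128830347, plus strand, TEAD: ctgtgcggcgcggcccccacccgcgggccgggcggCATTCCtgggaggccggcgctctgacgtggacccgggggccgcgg
VCL, chr10:73997910-73997989, plus strand, TEAD: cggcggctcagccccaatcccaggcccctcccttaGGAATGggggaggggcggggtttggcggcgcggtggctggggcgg
The *FLNA* box lies 94 to 85 bases before its start and that of *ACTN1* 171 to 162 bases before one of its starts. The *ACTN1* stretch also holds the TEAD letters as read on the other strand, left in lower case, from 154 bases before the same start.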

How the data were processed

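RNA-seq of HMLE cells was analysed at 7 timepoints with 3 libraries each, described by the study as biological triplicates. The authors deposited one normalised signal per gene and library. Each library's reads had been divided by a single size factor and rounded to 2 decimals, and whole reads were recovered for 100% of values (within 0.0051). The factors matched a median-of-ratios calculation. The submitters' processing notes name STAR 2.7, Salmon 1.4 and the build hg19 without their roles, and the use of strand is not given in the sources used here. Genes were matched by symbol, 2 list genes (*AJUBA*, *TNS2*) through older symbols in RefSeq.

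Genes with a mean of at least 10 (13343) entered limma 3.58.1 (R 4.3.3) as log2(value + 1) (eBayes with trend, 7 group means in one fit), with Benjamini-Hochberg adjustment within each contrast and a threshold of 0.05. Pair ratios were tested by exact permutation; 1 of the 8 pairs, with its paralog, is not reported here but counts in the adjustment. Alternatives were a pseudocount of 10, no filter (19546 genes), rescaling to the same total, quantile normalization, only 2 timepoints in the fit, edgeR 4.0.16 and DESeq2 1.42.0 on recovered reads, at least a 2-fold change, d20 alone for the ratios, and each library left out. The third d7 library was also left out of contrasts that d7 does not enter and of correlations, alternatives chosen after seeing the data. The test was also run on simulated counts drawn with the means and spread of these data, with 200 genes changed. Its outcome is not given here. The 9 genes and the lists were chosen with earlier results of these data known. Named genes are the 9, their paralogs, the 5 list genes that increased most and the 5 that decreased most at d20, and the 2 nearest genes of each of the 9; *PLS1*, *ENAH* and *ARHGEF7* also complete a count. Without replicate numbers in the table header, libraries are named by column order. Levels per kilobase used the longest coding transcript of GENCODE v29 (GRCh38), promoters RefSeq GRCh38.p14. SD values give the spread of the 3 libraries of a timepoint, and SE values come from the spread between libraries in the limma fit. Floors cover counting error only. Plots used Python 3.11.15 and matplotlib 3.10.9.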

Additional observations from a re-analysis of the deposited data

Results flagged for a closer look

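A gene's change from d0 was marked for a closer look where it differed between 2 neighbouring treated days by a direct limma contrast (adjusted p under 0.05). No minimum size was set, and 35 of 45 gene and step combinations were marked. Such differences were common. Of all genes tested, 32.9% were higher and 32.0% lower from d1 to d4, and 25.5% in each direction from d4 to d7. The shares were 36.2% and 35.2% from d7 to d10, 39.3% and 40.5% from d10 to d15, and 37.7% and 36.3% from d15 to d20. Groups of 3 libraries are too small for a test of single outlying libraries. From d1 to d4 the differences were 0.86 for *FLNC*, 0.17 for *ZYX*, -0.17 for *ACTN1*, -0.29 for *ACTN4*, -0.17 for *FLNA* and -0.2 for *FERMT2*. From d4 to d7 they were -0.11 for *ACTN1*, 0.27 for *ACTN4*, 0.18 for *FLNA*, 0.23 for *PALLD*, -0.18 for *TLN1* and 0.16 for *FERMT2*. From d7 to d10 they were 0.12 for *ACTN1*, 0.13 for *ACTN4*, 0.13 for *FLNA*, -0.59 for *FLNC*, -0.18 for *ZYX*, -0.36 for *PALLD* and 0.38 for *TLN1*. From d10 to d15 they were -0.44 for *ACTN1*, -0.42 for *ACTN4*, -0.17 for *FLNA*, 1.22 for *FLNC*, 0.44 for *ZYX*, 0.33 for *PALLD*, -0.5 for *TLN1* and -0.19 for *FERMT2*. From d15 to d20 they were 0.46 for *ACTN1*, 0.33 for *ACTN4*, 0.3 for *FLNA*, -0.96 for *FLNC*, 0.36 for *VCL*, -0.44 for *ZYX*, 0.53 for *TLN1* and 0.4 for *FERMT2*.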

How the results depend on the processing

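No paired analysis was possible because replicate numbers are missing from the table's header, so the fit with a replicate block was not run. Changes near 0.2 on the log2 scale in *VCL* and *TLN1* at d15 depended on the libraries kept and on the scaling. Without the third d7 library, left out after seeing the data, the limma adjusted p was 5.39e-06 for *VCL* and 1.33e-06 for *TLN1*. Rescaling to the same total gave 0.035 for *TLN1* (limma adjusted p = 0.678), and quantile normalization gave 0.13 (limma adjusted p = 0.0718). For *VCL* the adjusted p reached 0.898 over 14 alternatives. The counts of the 9 genes against d0, their d10 to d15 and d15 to d20 counts and the list counts were within 1.5 times under each alternative except those given next. At a 2-fold minimum, 2, 3, 3, 2, 2 and 4 of the 9 were higher from d1 to d20, and of the list 15, 13, 15, 15, 16 and 11 were higher and 0, 1, 1, 0, 3 and 0 lower. Rescaling to the same total raised the list genes lower to 13 at d1, 9 at d4, 8 at d7 and 13 at d10, and moved the calls over all genes at d1 from 4174 higher and 3804 lower to 2436 and 6692; quantile normalization gave 3390 and 4642, and edgeR 3960 and 4093. From d4 to d7, 2 of the 9 were lower, against 1 with no filter, rescaling, edgeR and DESeq2, 0 with only 2 timepoints in the fit and 0 to 2 with 1 library left out. With only 2 timepoints in the fit, 2 were higher from d4 to d7 and 1 from d7 to d10. Quantile normalization left 2 lower from d1 to d4 and 3 from d10 to d15. With d20 alone against d0, where p cannot go below 0.1, the log2 ratio differences were 0.74 for *ACTN1*/*ACTN4*, 1.88 for *FLNC*/*FLNA*, 0.35 for *ZYX*/*VCL* and, reversed, 0.31 for *FERMT2*/*FERMT1*. Leaving out 1 library gave ranges of -0.41 to -0.36 for *PALLD*/*ACTN1*, past the threshold without any 1 d15 library (adjusted exact p = 0.0239), and of -0.03 to 0.061 for *TLN1*/*TLN2*. Single steps that changed sign were *FERMT2* from d7 to d10 (0.02; -0.015 rescaled, -0.063 quantile, -0.007 edgeR, -0.042 to 0.138 with 1 library left out), *PALLD* from d1 to d4 (0.00; 0.067 quantile, 0.003 DESeq2, -0.016 to 0.01 with 1 library left out), and under quantile normalization *FLNA* from d7 to d10 (-0.042) and d10 to d15 (0.089), *VCL* from d10 to d15 (0.05) and *PALLD* from d15 to d20 (-0.069). Without the third d7 library *VCL* changed by -0.032 from d4 to d7 (up to 0.265 without another) and by 0.125 from d7 to d10 (down to -0.172 without another), and *ZYX* by -0.022 from d4 to d7. The cause of these differences was not tested. Of 1359 alternative values for single genes 1274 stayed in the same direction and on the same side of the threshold.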
